A study of Homo sapiens with 6 samples.

Results

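The 6 non-coding transcripts described here were measured in A375, a human melanoma line that grows through mutant BRAF, after exposure to BMH-21, a small molecule that blocks RNA polymerase I. NEAT1 and MALAT1 are abundant RNAs that stay in the nucleus, PVT1 is a long non-coding RNA beside the MYC gene, and DLEU2, MIR17HG and MIR22HG are primary transcripts from which microRNAs are cut. The rows were picked by gene symbol, and all 6 names had a row among the 25548 gene rows of the deposited table. The control cells received DMSO and are titled 0 h, and the treated cells received 1 µM BMH-21 for 6 h, with 3 samples titled in each group. Both groups are the same line in serum-containing medium, so culture time and drug cannot be told apart, and "with BMH-21" covers both.

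The table gives FPKM, a level per transcript length: sequenced fragments per kilobase, scaled to the size of the library. Its 3 columns per group are titled as replicates, but in either group the first was the midpoint of the other columns in 99.9% of the rows without a 0. They are treated as 1 estimate per group between its bounds. No library can be seen singly, so there is no spread between replicates and no p-value, and read depth is unknown. A transcript is called separate between groups where the lower bound of one lies above the upper bound of the other, which describes the table and is no test. Rows that reached 1 FPKM in either group are called measured, and there were 13074 of them. SOX10, a melanoma lineage factor, was at 97.0 FPKM in control and 90.0 FPKM with BMH-21, with overlapping bounds. The lineage gene MITF was lower with BMH-21, at 5.31 FPKM against 8.06 FPKM, as was S100B, at 17.8 FPKM against 28.7 FPKM, both with separate bounds. The pigment genes TYR, MLANA and PMEL lay below 1 FPKM in both groups. The leukocyte gene PTPRC was at 0.0116 FPKM and 0.00219 FPKM. Of the markers of other cell types, the fibroblast proteoglycan gene DCN alone was separate, at 0.419 FPKM in control and 2.50 FPKM with BMH-21. The other fibroblast marker, COL1A1, was at 0.598 FPKM in control and 0.459 FPKM with BMH-21. KRT14, a keratinocyte marker, was at 1.64 FPKM in control and 2.16 FPKM with BMH-21. COL1A1 and KRT14 had overlapping bounds. The relation of DCN, MITF and S100B to the transcripts below was not tested.

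NEAT1 is the scaffold of paraspeckles, nuclear bodies that form on the nascent RNA and hold splicing-factor-like proteins such as NONO and SFPQ. MALAT1 gathers in nuclear speckles, which store splicing factors. A microRNA host transcript is cut in the nucleus by DROSHA with DGCR8 into a hairpin, which DICER1 trims to the mature microRNA. The mature microRNA, held by an Argonaute protein, pairs through its seed (bases 2 to 8) with target messenger RNAs and lowers their output. MIR17HG is an oncogenic host that MYC activates, whereas the microRNAs of DLEU2 and MIR22HG are mostly described as restraining growth.

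Of 15 microRNA genes listed for these transcripts, 9 have a mature sequence in the RefSeq table, 6 in MIR17HG, 2 in DLEU2 and 1 in MIR22HG. Their sequences are shown because the levels below are those of the precursors, and because the target lists below are named by these microRNAs. Those lists hold described targets, and no target was matched to a seed here. The main arm of each is printed 5′ to 3′ with the seed in capitals, from the GRCh38.p14 table.
miR-17-5p: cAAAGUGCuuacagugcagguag
miR-20a-5p: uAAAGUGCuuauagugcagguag
miR-18a-5p: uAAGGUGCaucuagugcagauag
miR-19a-3p: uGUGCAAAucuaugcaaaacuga
miR-19b-3p: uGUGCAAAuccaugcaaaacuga
miR-92a-3p: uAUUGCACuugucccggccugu
miR-15a-5p: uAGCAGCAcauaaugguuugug
miR-16-5p: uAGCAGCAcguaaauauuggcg
miR-22-3p: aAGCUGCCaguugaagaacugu

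These sequences fall into 6 seed groups. miR-17-5p and miR-20a-5p share a seed and are identical at 21 of 23 positions, and miR-19a-3p and miR-19b-3p are identical at 22 of 23. miR-18a-5p matches the miR-17 seed at 6 of 7 positions. From DLEU2, miR-15a-5p and miR-16-5p share the seed AGCAGCA and are identical at 16 of 22 positions. The seed of miR-22-3p is shared with none of the other 8 printed here. miR-17-5p lies on the plus strand at chr13:91350618-91350640 and miR-92a-3p, the last of that cluster, at chr13:91351361-91351382. miR-16-5p lies on the minus strand at chr13:50049027-50049048 and miR-22-3p on the minus strand at chr17:1713914-1713935.

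The position of a hairpin in its host differs between the hosts in GENCODE release 29, whose build is GRCh38. The MIR22 hairpin lies within an exon in all 19 annotated MIR22HG transcripts. The 6 hairpins of MIR17HG lie within an exon in 2 of 3 transcripts and within an intron in 1. Those of MIR15A and MIR16-1 lie within an intron in all 6 DLEU2 transcripts that span them. An FPKM value built on these exons would cover the MIR22 hairpin but, for DLEU2, only the spliced RNA around the hairpins. Which transcript models the authors used, for these rows as for all others, was not given in the sources used here.

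MIR22HG and PVT1 were higher with BMH-21 and separate from control, and none of the 6 was lower with separate bounds. Of all 13074 measured rows, 4.08% were higher and 3.41% lower by the same rule. The count of 2 in 6 rests on members proposed with earlier results of these data known. By estimate, MIR22HG was 3.28-fold and PVT1 2.63-fold above control. NEAT1 was 1.31-fold and MALAT1 1.30-fold above control with overlapping bounds, MIR17HG was 1.15-fold below with overlapping bounds, and the estimates for DLEU2 were nearly equal. In bulk RNA, more cells carrying a transcript and more of it per cell cannot be told apart. The median log2(FPKM + 1) difference of the 6 was 0.38, beside 0.04 over all measured rows.

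**Figure D1:**
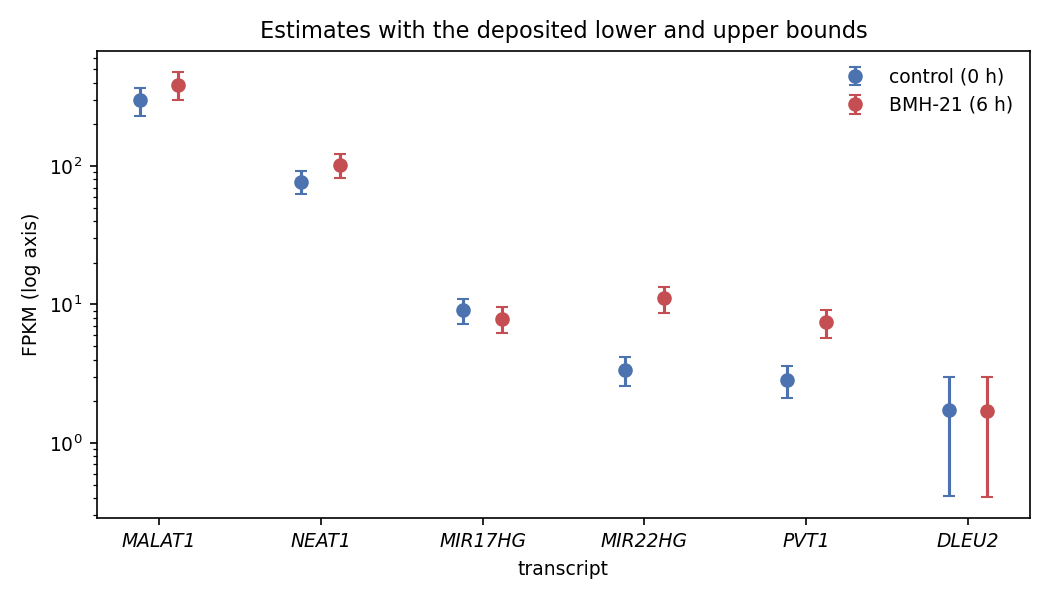
FPKM (log axis) of the 6 transcripts in control (blue) and with BMH-21 (red); points are the authors' estimates and bars run from their lower to their upper bound. The bars of MIR22HG and PVT1 do not overlap between groups, and those of the other 4 do.

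NEAT1 is described in other cells as induced by p53 and by stress. It was at 77.3 FPKM in control, with bounds of 62.4 and 92.2 FPKM. With BMH-21 it was at 102 FPKM, with bounds of 81.8 and 121 FPKM. The bounds share the stretch from 81.8 to 92.2 FPKM, so NEAT1 was not separate. Its log2(FPKM + 1) difference was 0.39 ± 0.40, with the half-width (both groups' bounds combined on that scale) after the sign. The difference therefore fell just short of its half-width. The bounds allow any fold between 0.887 and 1.94. Of 12759 measured rows other than short RNAs, 7.48% had a larger difference.

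MALAT1 was the most abundant of the 6, at 299 FPKM in control with bounds of 231 and 367 FPKM. With BMH-21 it was at 388 FPKM, with bounds of 298 and 479 FPKM. The bounds overlapped broadly, and the log2 difference of 0.38 ± 0.48 lay within its half-width. The bounds of MALAT1 are wide for its level, at 22.7% of the estimate in control, against a median of 18.1% over 184 rows within 1.5-fold of that level. MALAT1 exceeded NEAT1 by 3.86-fold in control and 3.82-fold with BMH-21, so the estimates of this pair kept almost the same ratio. The genes lie on the same strand of chromosome 11 with 52147 bases between them in GENCODE. The microRNA row MIR612, annotated within the longest NEAT1 transcript, was at 110 FPKM in control and 717 FPKM with BMH-21, but its lower bound was 0 in both groups and its upper bounds were 1599 and 4354 FPKM. A row that short, inside another transcript, holds no usable value.

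PVT1 is a long non-coding RNA that is amplified with MYC in many tumours and is described as stabilising the MYC protein. In mouse, a p53-induced isoform of it is described as lowering Myc transcription. PVT1 was at 2.83 FPKM in control, with bounds of 2.10 and 3.56 FPKM. With BMH-21 it was at 7.43 FPKM, with bounds of 5.71 and 9.16 FPKM. The bounds leave a gap of 2.15 FPKM and allow a fold between 1.6 and 4.36. The log2 difference of 1.14 ± 0.41 was 2.78 times its half-width, and 0.682% of measured rows other than short RNAs had a larger one. GENCODE lists 25 transcripts for PVT1 over 306721 bases, and the row does not say which of them differed. The rows of MIR1204 to MIR1208, microRNAs annotated in or near PVT1, were all listed at 0 in both groups.

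MIR22HG stood furthest from control of the 6. It was at 3.37 FPKM in control, with bounds of 2.56 and 4.17 FPKM. With BMH-21 it was at 11.1 FPKM, with bounds of 8.74 and 13.4 FPKM. The gap between the bounds was 4.57 FPKM, more than the whole control estimate, and the bounds allow a fold between 2.09 and 5.22. The log2 difference was 1.47 ± 0.39, or 3.77 times its half-width, and ranked 48 among 12759 measured rows other than short RNAs.

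MIR17HG, the host of the miR-17-92 cluster, was at 9.08 FPKM in control with bounds of 7.20 and 10.9 FPKM. With BMH-21 it was at 7.91 FPKM, with bounds of 6.25 and 9.56 FPKM. The log2 difference of -0.18 ± 0.38 was less than its half-width, and the bounds allow a fold between 0.571 and 1.33. MYC, which activates this host, was at 6.32 FPKM in control and 3.61 FPKM with BMH-21, with separate bounds. Whether the MIR17HG difference differs from that of MYC was not tested.

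DLEU2, the host of miR-15a and miR-16-1 in a region deleted in chronic lymphocytic leukaemia, was at 1.71 FPKM in control with bounds of 0.413 and 3.02 FPKM. With BMH-21 it was at 1.70 FPKM, with bounds of 0.409 and 3.0 FPKM. Its bounds reach 75.9% to either side of the control estimate, against a median of 26.5% over 1577 rows within 1.5-fold of its level. They allow any fold between 0.136 and 7.26, so near-equal estimates do not show an equal level. DLEU2 overlaps genes on the opposite strand. The library kit is a stranded one per the labels' protocols, but nothing in the sources used here says whether counting used strand.

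The order of the 6 levels differed between groups at its lower end. In control it ran MALAT1, NEAT1, MIR17HG, MIR22HG, PVT1 and DLEU2. MIR22HG and PVT1 overlapped in control, as did PVT1 and DLEU2, while MIR17HG lay 2.70-fold above MIR22HG with separate bounds. With BMH-21 MIR22HG stood 1.40-fold above MIR17HG, and PVT1 lay close to MIR17HG, both pairs with overlapping bounds. DLEU2 then lay apart from PVT1, which was 4.36-fold above it. MALAT1 and NEAT1 led with separate bounds in both groups.

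**Figure D2:**
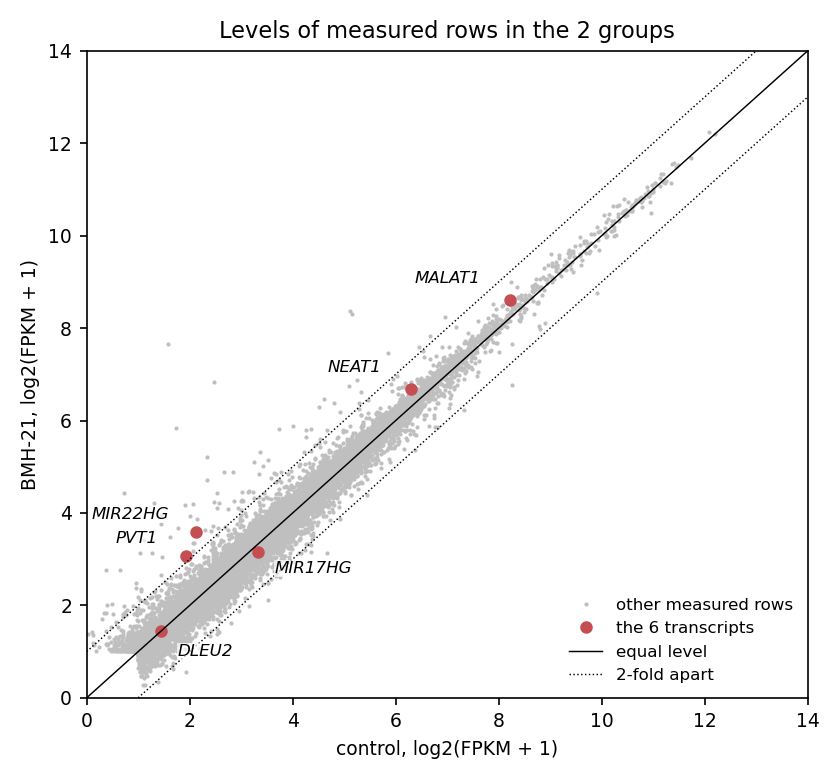
Each point is a measured row, with log2(FPKM + 1) in control on the horizontal and with BMH-21 on the vertical axis; short RNA rows are left out, red points are the 6 transcripts, the solid line marks equal levels and dotted lines a 2-fold difference. MIR22HG and PVT1 lie above the upper dotted line, and 0.917% of 12759 rows reach it.

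The rows most like the separate pair were found by distance over both groups' log2(FPKM + 1) levels, which with 2 groups is a weak measure of likeness. Near PVT1 lay FAM115C, at 2.72 FPKM in control and 6.90 FPKM with BMH-21. Nearest to MIR22HG were LHX1, a homeobox gene, at 3.94 FPKM in control and 11.5 FPKM with BMH-21, and CSF1, the macrophage growth factor gene, at 3.24 and 9.18 FPKM.

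The genes next to each transcript show whether a difference extended along the chromosome. The nearest 2 measured genes that did not overlap it were taken on each side. Of the 21 distinct genes reported, 1 was higher and 2 were lower with separate bounds. The 21 include NEAT1 and MALAT1, each as a neighbour of the other. Over all measured rows, 4.08% were higher and 3.41% lower. Beside PVT1, MYC went the other way, 1.75-fold lower, with bounds of 4.99 to 7.65 FPKM in control and 2.79 to 4.44 FPKM with BMH-21. FAM84B, beyond MYC, was at 142 FPKM in control and 154 FPKM with BMH-21. On the far side FAM49B was at 42.5 and 41.5 FPKM and ASAP1 at 9.07 and 8.29 FPKM. None of these 3 was separate.

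Beside MIR22HG, the difference was not shared by the flanking rows. TLCD2 was at 2.90 FPKM in control and 2.19 FPKM with BMH-21, and PRPF8, a core spliceosome gene, was at 75.4 and 78.5 FPKM. WDR81 was at 8.93 FPKM in control and 12.3 FPKM with BMH-21, a log2 difference of 0.42 ± 0.36 with overlapping bounds. SERPINF1, which encodes the anti-angiogenic protein PEDF, was 1.59-fold lower with separate bounds, at 11.6 FPKM with BMH-21 against 18.3 FPKM.

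On chromosome 11, SLC25A45, a mitochondrial carrier gene, was the higher neighbour, at 4.92 FPKM with BMH-21 against 3.05 FPKM in control. FRMD8, between it and NEAT1, was at 39.6 FPKM against 28.0 FPKM, so its log2 difference was 0.49 ± 0.36 with overlapping bounds. Together with NEAT1 and MALAT1, 4 adjacent measured genes had differences between 0.38 and 0.55. The measured gene next after MALAT1 is not reported here, so where this run ends is not shown. LTBP3, the gene after that one, was at 37.3 FPKM with BMH-21 against 36.2 FPKM, with overlapping bounds. On chromosome 13, the neighbours of MIR17HG (SLITRK6, SLITRK5, GPC6 and TGDS) had log2 differences between -0.31 and -0.18, all with overlapping bounds. Those of DLEU2 (KPNA3, SPRYD7, RNASEH2B and INTS6) lay between -0.24 and 0.26, also overlapping.

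**Figure D3:**
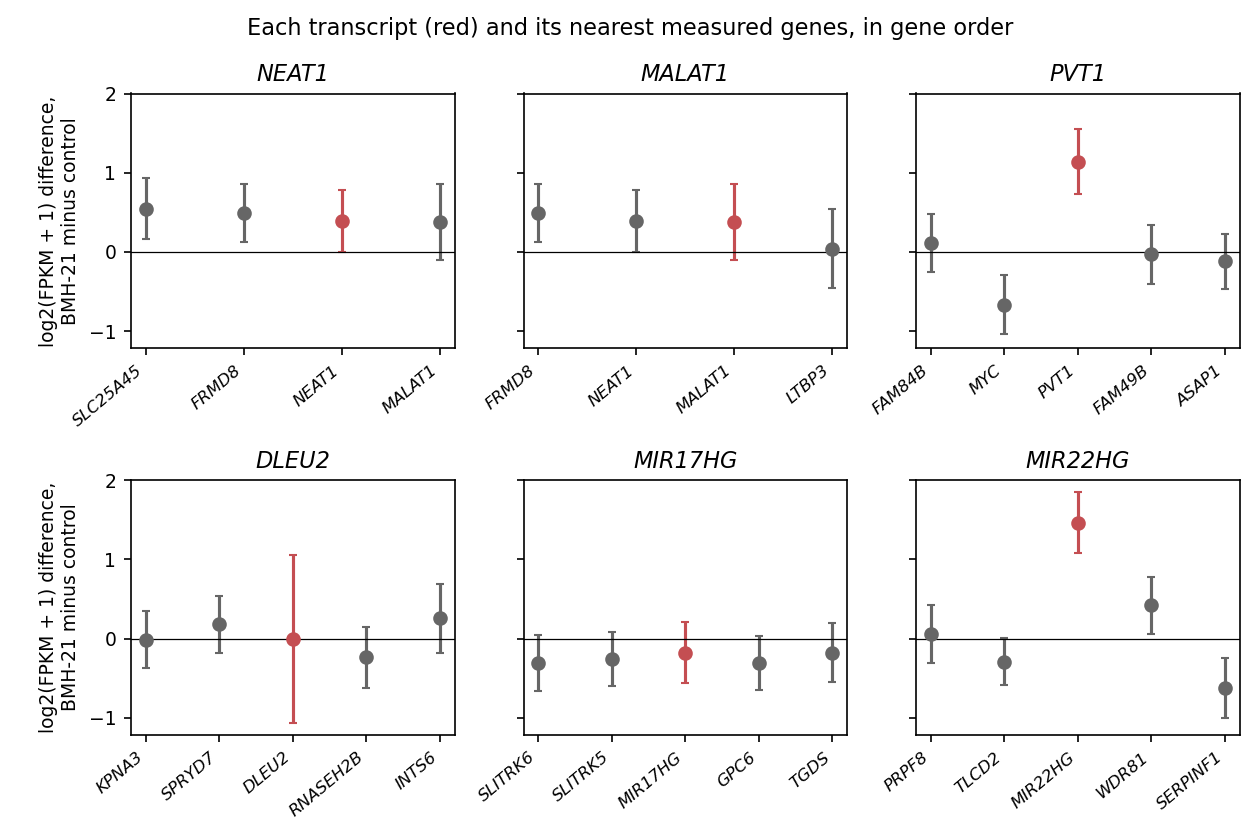
Log2(FPKM + 1) difference (BMH-21 minus control) of each transcript (red) and its nearest measured genes on either side (grey), in gene order and not to distance; bars are the half-widths combined from both groups' bounds. PVT1 at 1.14 stands beside MYC at -0.67, and MIR22HG at 1.47 stands above all 4 of its neighbours. The measured gene next after MALAT1 is not reported here and is not drawn.

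The promoter of MIR22HG, from 250 bases before to 50 bases after the start site, is printed because this host differed most. It lies on the minus strand at chr17:1716161-1716460 in GRCh38.p14 and comes from RefSeq; capitals mark the motif matches described next.
MIR22HG promoter: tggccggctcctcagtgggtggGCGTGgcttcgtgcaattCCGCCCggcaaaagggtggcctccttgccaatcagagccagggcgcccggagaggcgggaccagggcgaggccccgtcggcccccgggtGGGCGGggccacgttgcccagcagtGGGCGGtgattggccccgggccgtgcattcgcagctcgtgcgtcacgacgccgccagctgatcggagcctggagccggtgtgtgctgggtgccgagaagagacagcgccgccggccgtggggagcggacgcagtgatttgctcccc

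Motifs were searched on both strands, and the share of 35116 RefSeq promoters of the same length holding each is given beside it. The MIR22HG promoter holds the GC box GGGCGG at 3 places, with the first base of each match 210, 121 and 96 bases before the start site (45.0% of promoters hold it). It holds the aryl hydrocarbon receptor core GCGTG once, 228 bases before the start site (36.5%). It holds no match to the E-box CACGTG (7.26%), the AP-1 site TGANTCA (7.71%), the cyclic AMP element TGACGTCA (1.85%), the antioxidant core TGANNNNGC (41.8%), TATAAA (11.5%), the heat shock element (0.490%) or the CArG box (1.29%). The best stretch for the 2-half-site p53 response element without a spacer departed from its consensus at 7 positions, and 5.2% of promoters hold one with at most 3 departures. Promoters of MALAT1, DLEU2 and MIR17HG in the table held none with at most 3 departures either, the fewest being 4. DLEU2 alone of these held the E-box, in 1 of its 2 promoters. No promoter of NEAT1 or PVT1 was searched. A match or its absence in this window says nothing of binding.

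Proteins of the same nuclear bodies had 1 separate row among 2 lists. None of 18 paraspeckle proteins was separate, beside 7.5% of all measured rows, and their median log2 difference was 0.14. NONO and SFPQ, which paraspeckles need to form on NEAT1, were at 200.5 FPKM with BMH-21 against 216 FPKM and at 195 against 182 FPKM, and were named after their values were seen. PSPC1 was lowest, at 39.7 FPKM against 45.1 FPKM, and RBM14 highest, at 26.2 FPKM with bounds of 19.2 and 33.3 against 16.3 FPKM with bounds of 11.6 and 21.03. The log2 difference of RBM14, 0.65 ± 0.56, exceeded its half-width although its bounds overlapped. Of 21 nuclear speckle proteins, 1 was lower with separate bounds, or 4.76% against the same 7.5%, and the median was 0.15. That one was the splicing factor SRSF3, 1.48-fold lower at 89.1 FPKM against 132 FPKM. ACIN1 was highest of that list, at 51.9 FPKM against 35.8 FPKM, a difference of 0.52 ± 0.44 on the log2 scale with overlapping bounds.

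The machinery that makes and uses microRNAs had 1 lower, 0 higher and 21 overlapping members of 22 measured, with a median log2 difference of 0.08. The separate share was 4.55%, beside 7.5% of all measured rows. The lower one was DDX17, an RNA helicase that assists DROSHA, at 58.0 FPKM with BMH-21 against 99.6 FPKM, or 1.72-fold. Its paralog DDX5 was at 205 FPKM against 159 FPKM with overlapping bounds. Among the processing enzymes, DROSHA was at 12.5 against 12.2 FPKM, DGCR8 at 9.07 against 8.43 FPKM and DICER1 at 9.11 against 8.21 FPKM. The Argonaute gene EIF2C2 (AGO2) was at 20.2 FPKM against 17.1 FPKM. All 4 of these overlapped, and EIF2C2 and the enzymes were named after their values were seen.

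Wider groups of the same kinds set the 6 transcripts in context, in lists chosen with earlier results of these data known. The log2 differences of MIR22HG and PVT1 lay above those of every measured member of both. Symbols without a row and rows below 1 FPKM in both groups are outside this comparison. Of 49 other long non-coding RNA symbols listed, 29 had a row, and of 46 other host symbols, 28 did. Among 22 measured rows of other long non-coding and non-messenger RNAs, 1 was higher, 2 were lower and 19 overlapped, with a median log2 difference of -0.01. The 3 separate rows are 13.6% of this list, beside 7.5% of all measured rows. The higher one was KCNQ1OT1, an RNA that silences an imprinted domain, at 1.51 FPKM against 0.927 FPKM. The lower ones were BCYRN1, at 277 FPKM against 476 FPKM, and HCG11, at 4.29 FPKM against 7.07 FPKM. BCYRN1 resembles Alu repeats, so its reads may be shared with other loci and its value is uncertain. Among 23 measured microRNA hosts other than the members, coding and non-coding, 1 was higher, 1 was lower and 21 overlapped, a separate share of 8.70%, with a median of -0.02. PANK1, a pantothenate kinase gene that hosts miR-107 and is a described p53 target, was at 3.03 FPKM against 1.68 FPKM. CTDSPL, a phosphatase gene that hosts a miR-26a copy, was at 2.80 FPKM against 4.81 FPKM. The largest log2 difference in these groups, that of PANK1, was 0.59, compared with 1.14 for PVT1 and 1.47 for MIR22HG.

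**Figure D4:**
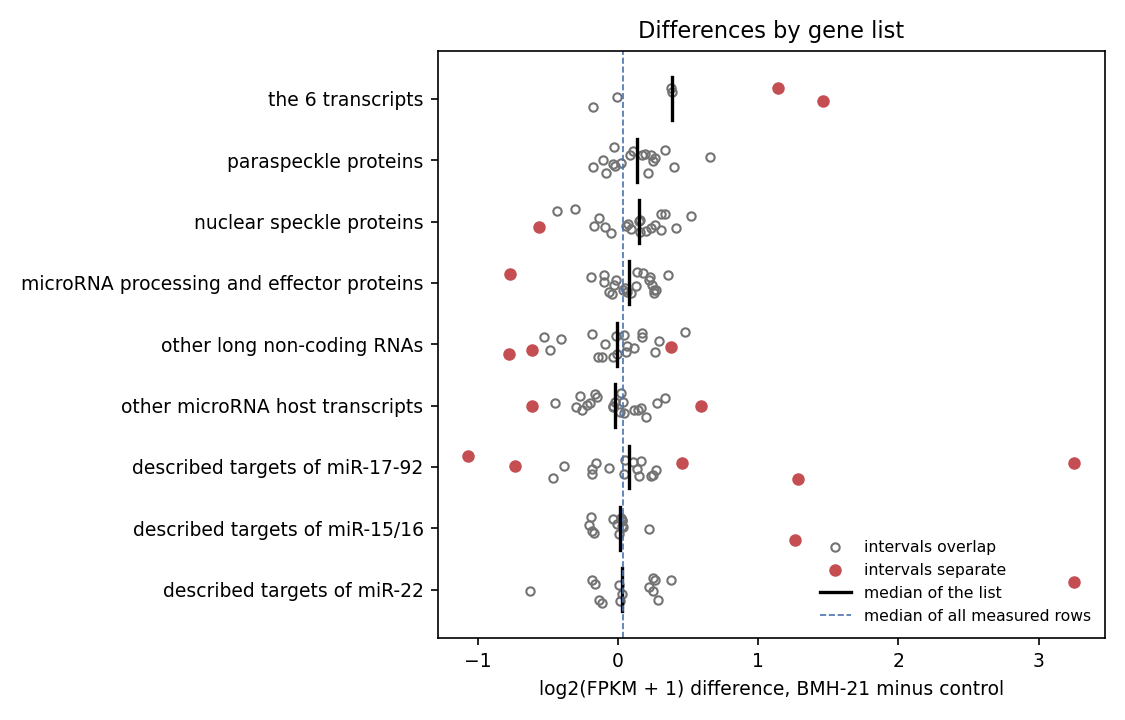
Log2(FPKM + 1) difference (BMH-21 minus control, horizontal axis) of the measured members of the named lists, without genes not reported here. Filled red points have separate bounds and open grey points overlap. Black bars are medians of the points drawn, so a bar can differ from the list median in the text. The dashed line is the median of all measured rows, 0.04. MIR22HG and PVT1 in the top line exceed all other long non-coding RNAs and microRNA hosts shown.

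The mature microRNAs were not measured. Of 15 microRNA rows at the hosts, 14 were listed at 0 in both groups and the other was MIR612, and a total RNA library of this type is not built to capture them. Messenger RNAs described as their targets were therefore read only as levels. Of 21 targets of the miR-17-92 cluster, 3 were higher, 2 were lower and 16 overlapped, and the median was 0.11. The separate share was 23.8%, beside 7.5% of all measured rows, in a list chosen with earlier results of these data known. The higher ones were the cell cycle inhibitor CDKN1A (329 FPKM against 33.5 FPKM), the matrix protein gene THBS1 (302 against 123 FPKM) and the deubiquitinase gene CYLD (5.28 against 3.57 FPKM). The lower ones were E2F1, at 12.4 FPKM against 21.3 FPKM, and E2F2, at 1.53 FPKM against 4.29 FPKM.

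Of 14 measured targets of miR-15 and miR-16, 1 was higher and 13 overlapped. The separate share was 7.14%, beside 7.5% of all measured rows. Their median of 0.01 was below 0 under each of the 4 other scalings. The higher one was E2F7, a repressor of S-phase genes, at 18.2 FPKM against 7.0 FPKM. BCL2 was at 1.57 against 1.92 FPKM and CCND1 at 117 against 115 FPKM, both with overlapping bounds and both named after their values were seen. Of 16 measured targets of miR-22, 1 was higher and 15 overlapped, a separate share of 6.25%, with a median of 0.13. That one was again CDKN1A, which is also a direct p53 target and counts in both lists. ERBB3 was lowest of the miR-22 list, at 68.2 FPKM against 106 FPKM with wide, overlapping bounds. In none of these lists did 1 direction hold throughout.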

How the data were processed

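RNA was extracted with Trizol and libraries were made with an Illumina stranded total RNA kit, per the labels' protocols. FPKM values were deposited by the authors as 1 table of 25548 rows, with 3 columns per group. TopHat2, Cuffdiff 2.0 and GRCh37 are named by the submitters' processing notes, and their roles are not given in the sources used here. Column 1 of each group was the midpoint of columns 2 and 3 within a relative tolerance of 0.0001 in 16203 of 16213 control and 15872 of 15881 BMH-21 rows, so they were read as an estimate and its bounds. The confidence level of the bounds was not given in the sources used here. A row whose estimate lay outside its bounds (11 measured rows) was not called.

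Differences were taken on log2(FPKM + 1) with Python 3.11.15, numpy 2.4.6 and pandas 2.3.3, which understates folds of low rows. The half-widths of a row in control and in BMH-21 were combined as a root sum of squares on that scale. The call rules were run on simulated rows without noise, which checks the code and says nothing of false calls in these data. Short RNA rows (315 measured) were found by symbol. The transcripts and gene lists were chosen with earlier results of these data known, and no list was tested. Named genes are the members, list rows with separate bounds or else the list's extremes, chromosomal neighbours and rows of nearest level. ACIN1, DDX5 and ERBB3 were named outside this rule with their values known, as were the genes flagged above. Values of 3 genes that this rule names or a list holds are not reported here; list counts and medians include theirs. Neighbours were taken from the gene order of RefSeq on GRCh38.p14, a build other than the authors', so names and order only were used. Alternatives were the pseudocount, the minimum level, 4 scalings and the width of the bounds.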

Additional observations from a re-analysis of the deposited data

How the results depend on the processing

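The 6 transcripts gave log2 differences within their half-widths of the reported value under pseudocounts of 0.1 and 0 and under median, upper quartile, quantile and equal-sum scalings. The half-widths ran from 0.38 for MIR17HG to 1.06 for DLEU2, so this is a loose standard that is easily met. Over these settings, MIR22HG ran from 1.39 to 1.72 and PVT1 from 1.07 to 1.39, while quantile scaling took MALAT1 from 0.38 to 0.20. MIR22HG and PVT1 were the separate members under each scaling, with bounds widened 1.5 times, and by the rule that a difference exceed its half-width. Counts that moved by over 1.5 times were those of small lists. Other long non-coding RNAs had 5 separate rows under upper quartile scaling instead of 3. Other microRNA hosts had 0 at a minimum of 5 FPKM instead of 2, as both lie below it. Targets of miR-15 and miR-16 had 2 without a minimum instead of 1. That list's median of 0.01 became -0.02 under median and equal-sum scaling, and -0.07 under upper quartile and quantile scaling. Upper quartile scaling took the medians of nuclear speckle proteins from 0.15 to 0.07, of the microRNA machinery from 0.08 to 0.00, of miR-17-92 targets from 0.11 to 0.03, of miR-22 targets from 0.13 to 0.06, of other hosts from -0.02 to -0.08 and of other long non-coding RNAs from -0.01 to -0.09. Quantile scaling took paraspeckle proteins from 0.14 to 0.02. A minimum of 5 FPKM took miR-22 targets to 0.25, and no minimum to 0.02. No scaling moved the median of all measured rows by more than 0.1. Leaving out replicates was not run, since the columns hold no single libraries. No paired analysis was possible because the columns that carry replicate numbers are an estimate and its bounds. Depth is unknown.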
